A study of Mus musculus with 35 samples.

Results

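Timp1, 2 further tissue inhibitors of metalloproteinases, 6 matrix metalloproteinases and the membrane protease Adam8 were followed in mouse lung RNA. The 10 genes were chosen by name, with earlier results of these data known. Every array probe whose RefSeq accession maps to one of them was taken. These were 12 of 55681 probes, for 10 of the 20660 genes with a symbol on the array. All 10 genes passed the filter on dim probes, Mmp9 and Mmp12 only through groups at the higher dose, 54 µg. Timp2 and Mmp12 each had 2 probes, and 1 Mmp12 probe was not well above background on any of the 35 arrays and was not tested.

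The mice were female C57BL/6 animals, 5 to 7 weeks old, with no genetic change named in the labels. They received a single instillation into the trachea of 40 µl holding 18 or 54 µg of 1 of 3 materials that the series title calls nanomaterials, known by the code names NRCWE-043, NRCWE-044 and NRCWE-045. Lungs were taken 24 h later. There were 7 groups of 5 arrays: controls at 0 µg, and each material at each dose. What the controls were given besides 0 µg is not stated, and the labels leave unsaid whether the 5 arrays of each group come from separate animals. The p-values therefore measure the spread between these samples, which may in part be technical. Each value is the log2 ratio of lung RNA (Cy5 dye) to a universal mouse reference RNA pooled from cell lines (Cy3 dye), so a value of 0 means the same signal in both. A change is a difference between group means on that scale.

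Matrix metalloproteinases are zinc enzymes that cut collagens, elastin and other extracellular proteins, and also release or inactivate cytokines and chemokines. Most are made as inactive precursors. Tissue inhibitors of metalloproteinases (TIMPs) bind the active site and block it. Timp1 is secreted and strongly inducible by inflammatory cytokines, Timp2 also takes part with Mmp14 in activating the Mmp2 precursor at the cell surface, and Timp3 is held in the matrix. In the lung, neutrophils carry Mmp8 and Mmp9 in their granules, macrophages make Mmp12, and fibroblasts make Mmp2.

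Across the arrays, 42.8 to 69.3% of probes lay well above background in the lung channel. The median lung channel signal was 334 on replicate 23 (18 µg of NRCWE-044) and 224.5 on replicate 24 (54 µg of NRCWE-044). On the other arrays it was 84.5 to 131. Markers of alveolar epithelium averaged 4.71 to 6.01 on the log2 ratio scale on every array, so the labelled tissue was present in each. Heart muscle markers averaged 1.5 to 2.54 on 10 arrays spread over all 7 groups and at most 0.70 on the others, and adipose markers averaged 3.59 to 4.64 on 3 arrays at 54 µg. Arrays lay on 7 slides, and controls on 4 of these. The labelled lung was sampled as random sections, so fewer cells of a type and less RNA per cell cannot be told apart in any result here.

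At 54 µg, Timp1 rose with all 3 materials, and Mmp19 rose with NRCWE-043 and NRCWE-044. With NRCWE-043, Timp1, the collagenase Mmp8, the gelatinase Mmp9 and Mmp19 rose and the gelatinase Mmp2 fell, 5 of 10 genes called at an adjusted p under 0.05, beside 10.2% of all 25534 features tested. With NRCWE-044, Timp1, Adam8, Mmp14 and Mmp19 rose and the brighter Timp2 probe fell, again 5 of 10, beside 5.95% of all features. With NRCWE-045, Timp1 was the 1 gene of 10 called, beside 0.325% of all features. The median change of the 10 genes was 0.46 with NRCWE-043, 0.34 with NRCWE-044 and 0.16 with NRCWE-045, beside medians over all features of 0.01, 0 and 0.01. Since the 10 genes were chosen with earlier results of these data known, these shares and medians are not an independent test of them. A call with one material and not with another does not show that they differ. The materials were compared directly further on.

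At 18 µg, limma called 0 of the 10 genes against control with any material, beside 4.18% of all features with NRCWE-043, 0% with NRCWE-044 and 0% with NRCWE-045. At an unadjusted p under 0.05 these counts were 2 of 10 (Mmp2 and Timp1), 0 and 0, and 4888, 2764 and 710 of all features. The medians of the 10 genes were 0.02, -0.09 and 0.07, beside 0, -0.03 and 0.01 over all features. All comparisons with control share the same 5 control arrays.

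**Figure D1:**
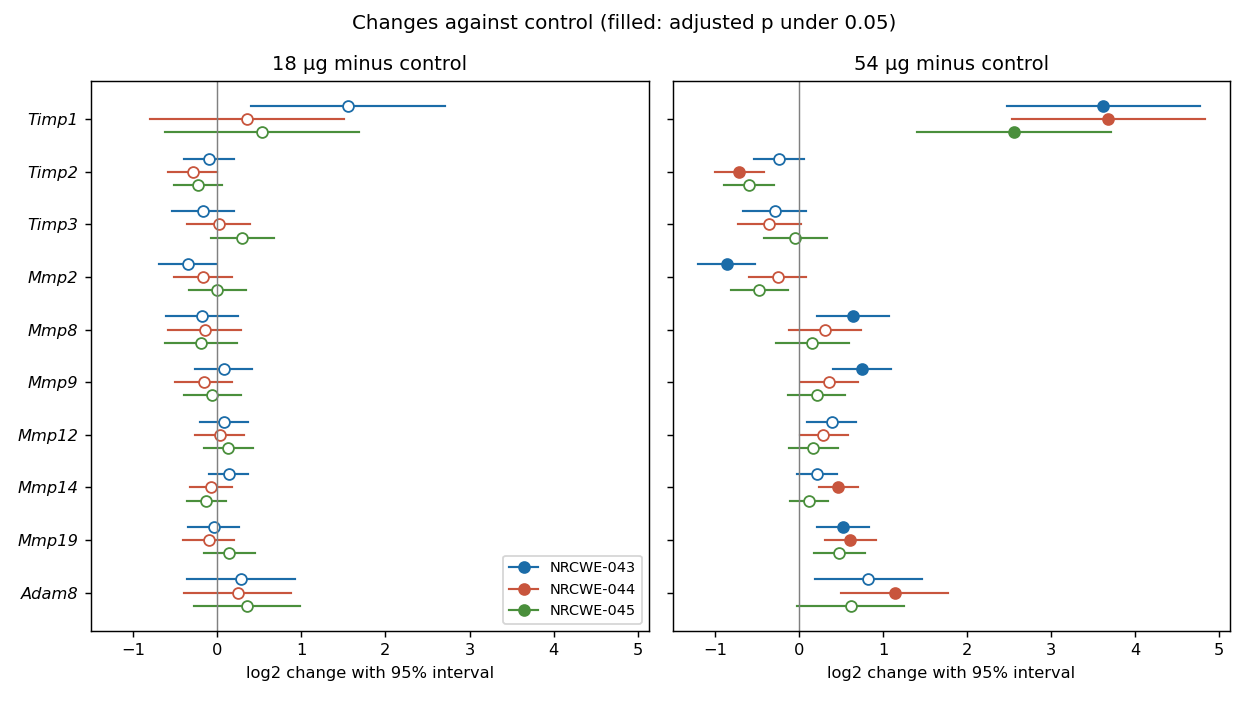
Log2 change against control for each of the 10 genes, with its 95% interval, at 18 µg (left) and 54 µg (right); blue stands for NRCWE-043, red for NRCWE-044 and green for NRCWE-045, and filled points mark an adjusted p under 0.05. Timp1 stands at 3.62, 3.68 and 2.56 at 54 µg, while the other 9 genes lie between -0.86 and 1.14 there and no point is filled at 18 µg.

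Timp1 is the inhibitor that showed the largest change among the 10 genes. The 250 bases before its RefSeq start (GRCm38.p6, chrX:20869916-20870165, plus strand) are shown because Timp1 moved most. A window of Mmp12 (GRCm38.p6, chr9:7347124-7347373, plus strand) is shown because it is the other one to hold a searched motif; it precedes the downstream one of 2 RefSeq starts of Mmp12 and lies inside the annotated gene. Capitals mark the Ets-type motif CAGGAAGT, 176 to 169 bases before the Timp1 start, and the AP-1 motif TGANTCA, 44 to 38 bases before that downstream Mmp12 start.
Timp1: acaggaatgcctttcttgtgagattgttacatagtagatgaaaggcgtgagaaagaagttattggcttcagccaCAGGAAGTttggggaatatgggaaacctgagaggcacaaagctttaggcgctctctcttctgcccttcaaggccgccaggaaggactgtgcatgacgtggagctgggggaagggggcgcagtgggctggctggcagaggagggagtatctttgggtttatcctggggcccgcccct
Mmp12: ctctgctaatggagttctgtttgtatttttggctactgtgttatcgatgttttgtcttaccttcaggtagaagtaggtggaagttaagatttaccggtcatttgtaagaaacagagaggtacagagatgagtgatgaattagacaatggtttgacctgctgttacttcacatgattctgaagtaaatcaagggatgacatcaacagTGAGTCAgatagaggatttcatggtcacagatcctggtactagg
Both motifs and the AP-1-like TGAGTAA, an element known from the Timp1 promoter, were searched on both strands in 8 windows of 7 of the genes; RefSeq windows for Mmp2, Mmp9 and Mmp19 were not used here. The windows of Timp2, Timp3, Mmp8, Mmp14 and Adam8 and the window before the upstream Mmp12 start held 0 matches, and TGAGTAA had 0 matches in the 8. Among all 32851 RefSeq windows of that length, 6.75% hold TGANTCA, 2.25% TGAGTAA and 2.69% CAGGAAGT. A match is a string of letters, not a bound site.

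In the controls, Timp1 (probe A_55_P1985850) stood at -3.03, -2.76, -2.54, -2.49 and -0.22, the last being replicate 29. At 54 µg of NRCWE-043 it stood at 0.84, 1.05, 1.70, 1.74 and 1.74, and at 54 µg of NRCWE-044 at 0.98, 1.06, 1.60, 1.63 and 2.10. Every array of these groups lay above every control. Timp1 rose by 3.62 with NRCWE-043 (SE 0.57, adjusted p = 9.4e-05, 12.3-fold) and by 3.68 with NRCWE-044 (SE 0.57, adjusted p = 1.4e-04, 12.8-fold), from -2.21 ± 1.13 (SD, n = 5) to 1.42 ± 0.44 (SD, n = 5) and 1.47 ± 0.46 (SD, n = 5). With NRCWE-045 at 54 µg the arrays stood at -1.53 (replicate 35), 0.21, 0.54, 1.06 and 1.49. Replicate 35 lay below control replicate 29, so these groups overlapped, although all 5 arrays were above the control mean. Timp1 rose by 2.56 there (SE 0.57, adjusted p = 0.038, 5.89-fold), to 0.35 ± 1.16 (SD, n = 5). This last call was lost when any of 8 arrays was left out: control replicates 2, 7, 15 and 30 and treated replicates 8, 14, 28 and 32 (2.27 to 2.60, adjusted p = 0.055 to 0.17).

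Within the slides that held both groups, the Timp1 difference from control at 54 µg was 3.68 and 4.77 for NRCWE-043, 3.52 to 4.22 on 3 slides for NRCWE-044, and 0.42 to 4.52 on 4 slides for NRCWE-045. The lowest, 0.42, came from the slide whose only control was replicate 29. That array averaged 2.54 for heart muscle markers; control replicate 2 averaged 2.30 and had Timp1 at -2.49. Whether these markers have a part in the Timp1 values was not tested.

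**Figure D2:**
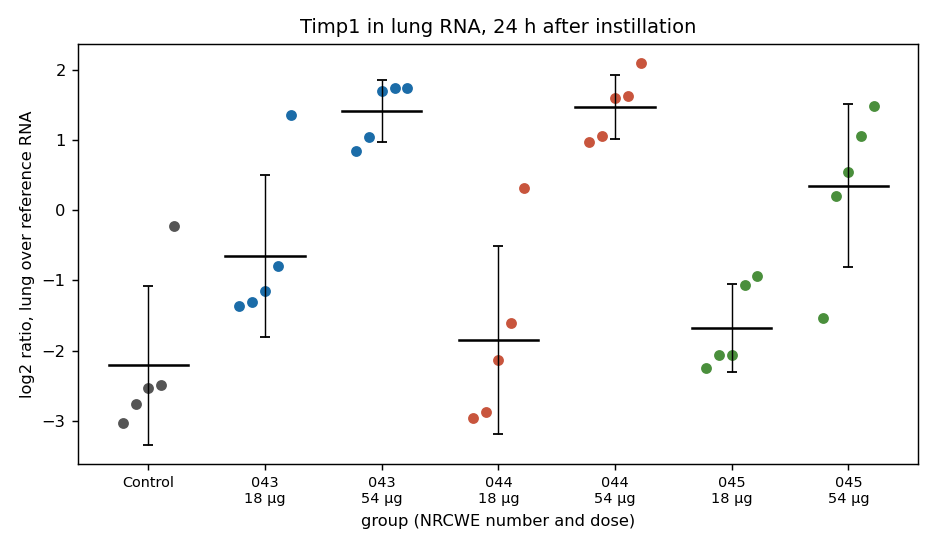
Log2 ratio of Timp1 in lung RNA to the reference on each of the 35 arrays, by group; lines are group means and bars ±1 SD (n = 5). The 10 arrays at 54 µg of NRCWE-043 and NRCWE-044 lie between 0.84 and 2.10, and single arrays at -0.22, 1.36 and 0.32 stand above the rest of the control, NRCWE-043 18 µg and NRCWE-044 18 µg groups.

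At 18 µg, Timp1 stood at -1.37, -1.31, -1.15, -0.79 and 1.36 with NRCWE-043, at -2.96, -2.87, -2.14, -1.61 and 0.32 with NRCWE-044, and at -2.25, -2.07, -2.06, -1.06 and -0.94 with NRCWE-045. All 3 groups overlapped the controls. The differences were 1.55 (95% interval 0.40 to 2.71, adjusted p = 0.12), 0.35 (-0.80 to 1.51, adjusted p = 0.83) and 0.53 (-0.62 to 1.68, adjusted p = 1), and were not called. Without control replicate 29 the NRCWE-043 difference was 2.05 and was called (adjusted p = 0.030). Ordered by mean, the groups ran NRCWE-044 54 µg (1.47), NRCWE-043 54 µg (1.42), NRCWE-045 54 µg (0.35), NRCWE-043 18 µg (-0.65), NRCWE-045 18 µg (-1.68), NRCWE-044 18 µg (-1.85) and control (-2.21). The array values of every pair of neighbours in this order overlapped.

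Between doses of 1 material, Timp1 was higher at 54 than at 18 µg of NRCWE-044 by 3.32 (SE 0.57, adjusted p = 3.3e-04), with no overlap. The step was 2.07 for NRCWE-043 (95% interval 0.92 to 3.22, adjusted p = 0.061) and 2.03 for NRCWE-045 (0.88 to 3.18, adjusted p = 0.96), neither of which passed. The NRCWE-043 step was called without its 18 µg replicate 10, the array at 1.36 (2.57, adjusted p = 0.021). In all, 3 of the 10 genes were called between doses for NRCWE-043 (Mmp8, Mmp9 and Mmp19, beside 1.16% of all features), 3 for NRCWE-044 (Timp1, Mmp14 and Mmp19, beside 6.52%), each of them higher at 54 µg. For NRCWE-045 limma called 0 of 10, beside 0% of all features; at an unadjusted p under 0.05 these were 5 of 10 and 976 of all features.

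The other inhibitors did not follow Timp1. Timp2, by its brighter probe (A_52_P540219), stood at 1.13, 1.16, 1.29, 1.36 and 1.62 in controls and at 0.28, 0.51, 0.58, 0.70 and 0.95 at 54 µg of NRCWE-044. It fell by 0.71 (SE 0.14, adjusted p = 0.0024), with no overlap. At 54 µg of NRCWE-045 its arrays, 0.51, 0.56, 0.59, 0.86 and 1.06, also lay below every control, and the difference of -0.59 did not pass (SE 0.14, adjusted p = 0.061). With NRCWE-043 it was -0.24 (adjusted p = 0.34). The second Timp2 probe (A_65_P12392), dimmer by its lung signal, disagreed: it stood at 0.41, 0.56, 0.62, 0.72 and 0.84 in controls and at 0.58, 0.59, 0.65, 0.65 and 0.83 at 54 µg of NRCWE-044. In the fit of single probes its changes at 54 µg were -0.14 with NRCWE-043 (adjusted p = 0.48), 0.03 with NRCWE-044 (adjusted p = 0.93) and 0.13 with NRCWE-045 (adjusted p = 0.84). The fall of Timp2 with NRCWE-044 thus holds for 1 of its 2 probes; averaged over both, its change was -0.34 and was still called. The 2 probes share an accession, and which transcripts each detects was not examined.

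**Figure D3:**
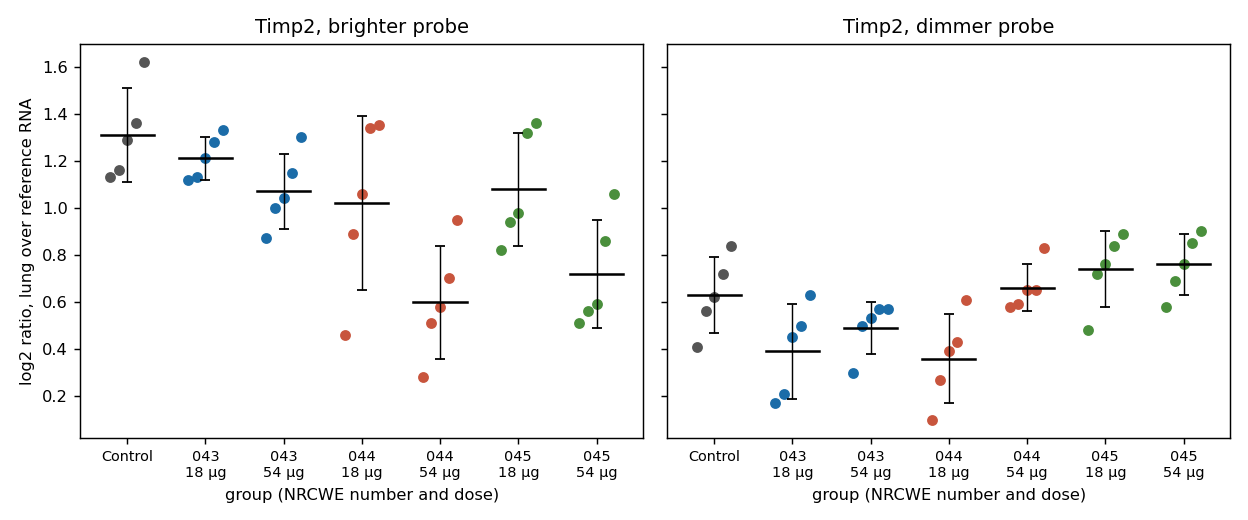
Log2 ratio of Timp2 to the reference on each array for its brighter (left) and dimmer (right) probe; lines are group means and bars ±1 SD (n = 5). The brighter probe averages 1.31 in controls and 0.60 at 54 µg of NRCWE-044, and the dimmer one 0.63 and 0.66.

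Timp3, the matrix-bound inhibitor, averaged 2.55 ± 0.22 (SD, n = 5) in controls and was called in 0 of the 18 limma comparisons (1 at an unadjusted p under 0.05, NRCWE-045 minus NRCWE-043 at 18 µg). Its changes at 54 µg were -0.29 (95% interval -0.66 to 0.08), -0.36 (-0.73 to 0.02) and -0.05 (-0.42 to 0.33).

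Among the gelatinases, which cut denatured and basement membrane collagen, Mmp2 and Mmp9 moved in opposite directions with NRCWE-043. Mmp2 stood at -0.73, -0.61, -0.14, 0.14 and 0.17 in controls and at -1.27, -1.11, -1.09, -1.05 and -0.93 at 54 µg of NRCWE-043, all below the lowest control. It fell by 0.86 (SE 0.17, adjusted p = 9.2e-04). At 54 µg of NRCWE-044 Mmp2 stood at -0.81, -0.53, -0.45, -0.32 and -0.30, and of NRCWE-045 at -1.10, -0.83, -0.72, -0.54 and -0.35. Both ranges overlapped the controls, at differences of -0.25 (adjusted p = 0.46) and -0.47 (adjusted p = 0.25). Within 2 slides the NRCWE-043 difference was -1.25 and -0.71.

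Mmp9 stood at -1.65, -1.59, -1.51, -1.35 and -1.31 in controls and at -0.92, -0.91, -0.84, -0.55 and -0.41 at 54 µg of NRCWE-043, with no overlap. It rose by 0.75 (SE 0.17, adjusted p = 0.0031). The control level is near the limit of the array: Mmp9 was well above background on 1 of 5 control arrays, 0 of 5 at 18 µg of NRCWE-044, and all 5 at 54 µg of NRCWE-043 and of NRCWE-044. Mmp9 passed the filter on dim probes only through the groups at 54 µg. A fitted difference from a group below background is not a full measure of the change. With NRCWE-044 at 54 µg Mmp9 stood at -1.65, -1.08, -1.08, -1.01 and -0.76, 0.36 above control (adjusted p = 0.22). Against 18 µg of NRCWE-044 it was at least 1.43-fold higher in the lung channel alone, counting the dim arrays at the lowest signal of probes above background (fitted difference of log2 ratios 0.53, adjusted p = 0.051). With NRCWE-045 at 54 µg the difference from control was 0.21 (adjusted p = 0.81), with 3 of 5 arrays above background. The step from 18 to 54 µg of NRCWE-043 was 0.68 (SE 0.17, adjusted p = 0.038) and was lost without any of 7 arrays, namely 18 µg replicates 5, 10 and 26 and 54 µg replicates 9, 16, 19 and 22 (0.60 to 0.73, adjusted p = 0.050 to 0.13).

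Mmp8, the neutrophil collagenase, stood at 0.27, 0.31, 0.74, 0.96 and 1.02 in controls and at 1.02, 1.23, 1.31, 1.41 and 1.55 at 54 µg of NRCWE-043. The highest control and the lowest treated array were 1.02 when rounded, and no treated array lay lower. Mmp8 rose by 0.64 (SE 0.21, adjusted p = 0.045). This call was lost without any of control replicates 2, 7 and 15 or treated replicates 9, 16, 19 and 22 (0.55 to 0.66, adjusted p = 0.067 to 0.13). The differences with NRCWE-044 and NRCWE-045 were 0.31 (95% interval -0.12 to 0.74) and 0.16 (-0.27 to 0.59). Between 18 and 54 µg of NRCWE-043 the step was 0.82 (SE 0.21, adjusted p = 0.044), lost without 18 µg replicate 5 or 10 or 54 µg replicate 9, 16, 19 or 22 (0.67 to 0.84, adjusted p = 0.080 to 0.24).

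Mmp12, the macrophage elastase, stayed close to background. It was well above background on 1 of 5 control arrays and, at 54 µg, on 4 of 5 with NRCWE-043, 5 with NRCWE-044 and 3 with NRCWE-045. Only through these groups at 54 µg did Mmp12 pass the filter on dim probes. Controls stood at -0.16, -0.12, -0.08, -0.07 and -0.03, and arrays at 54 µg of NRCWE-043 at 0.16, 0.26, 0.31, 0.34 and 0.40, with no overlap. The difference of 0.39 did not pass (SE 0.14, adjusted p = 0.079), nor did 0.29 with NRCWE-044 (adjusted p = 0.25), whose lowest array, at 0.04, also lay above every control. It was 0.17 with NRCWE-045 (adjusted p = 0.83). At 18 µg of NRCWE-044, 0 of 5 arrays were above background, so a fitted difference from that group is not a full measure of the change. Between 54 and 18 µg of NRCWE-044 the fitted difference of Mmp12 was 0.26 (adjusted p = 0.31). In the lung channel alone Mmp12 was at least 1.28-fold higher at 54 µg, with dim arrays counted as for Mmp9.

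Mmp14, the membrane-type protease that activates Mmp2, stood at -0.78, -0.68, -0.60, -0.50 and -0.37 in controls and at -0.37, -0.27, -0.09, -0.09 and 0.23 at 54 µg of NRCWE-044. The 2 groups met at -0.37. Mmp14 rose by 0.47 (SE 0.11, adjusted p = 0.010), a call lost without treated replicate 34, the array at 0.23 (0.38, adjusted p = 0.061). Its value on 18 µg replicate 23 of NRCWE-044 was missing, since that spot was marked as uneven. Over the other 4 arrays of the group it rose by 0.54 between doses (SE 0.12, adjusted p = 0.0047), but with marked spots kept the step was 0.36 and not called (adjusted p = 0.15). With the deposited log2 ratios both Mmp14 calls were lost (0.47 against control, adjusted p = 0.067, and 0.31 between doses, adjusted p = 0.27). With NRCWE-043 and NRCWE-045 at 54 µg the differences from control were 0.22 (adjusted p = 0.26) and 0.12 (adjusted p = 0.86).

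Mmp19, a protease of macrophages and epithelium among other cells, stood at -0.58, -0.44, -0.21, -0.12 and -0.02 in controls. It stood at -0.01, 0.25, 0.27, 0.36 and 0.39 at 54 µg of NRCWE-043 and at 0.16, 0.32, 0.38, 0.41 and 0.43 at 54 µg of NRCWE-044, all above every control. Mmp19 rose by 0.53 (SE 0.15, adjusted p = 0.019) and 0.61 (SE 0.15, adjusted p = 0.0097). The first of these was lost without control replicate 15 (0.45, adjusted p = 0.071). With NRCWE-045 at 54 µg the arrays stood at -0.13, 0.15, 0.23, 0.36 and 0.42, all above the control mean, and the difference of 0.48 did not pass (adjusted p = 0.16). Between doses Mmp19 rose by 0.57 with NRCWE-043 (adjusted p = 0.048) and 0.72 with NRCWE-044 (adjusted p = 0.0023). The NRCWE-043 step was lost without 18 µg replicate 5 or 10 or any of the 5 arrays at 54 µg (0.45 to 0.64, adjusted p = 0.073 to 0.25).

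Adam8, a disintegrin and metalloproteinase of leukocytes that sheds surface proteins, stood at -2.40, -2.02, -1.63, -1.36 and -1.35 in controls and at -1.32, -0.99, -0.70, -0.23 and 0.16 at 54 µg of NRCWE-044. The groups did not overlap. Adam8 rose by 1.14 (SE 0.31, adjusted p = 0.024, 2.20-fold). This call was lost without control replicate 7 or 30 or treated replicate 4, 18 or 34 (0.94 to 1.16, adjusted p = 0.054 to 0.10). With NRCWE-043 and NRCWE-045 the differences were 0.82 (95% interval 0.19 to 1.46, adjusted p = 0.092) and 0.62 (-0.02 to 1.25, adjusted p = 0.56), and the arrays overlapped the controls.

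**Figure D4:**
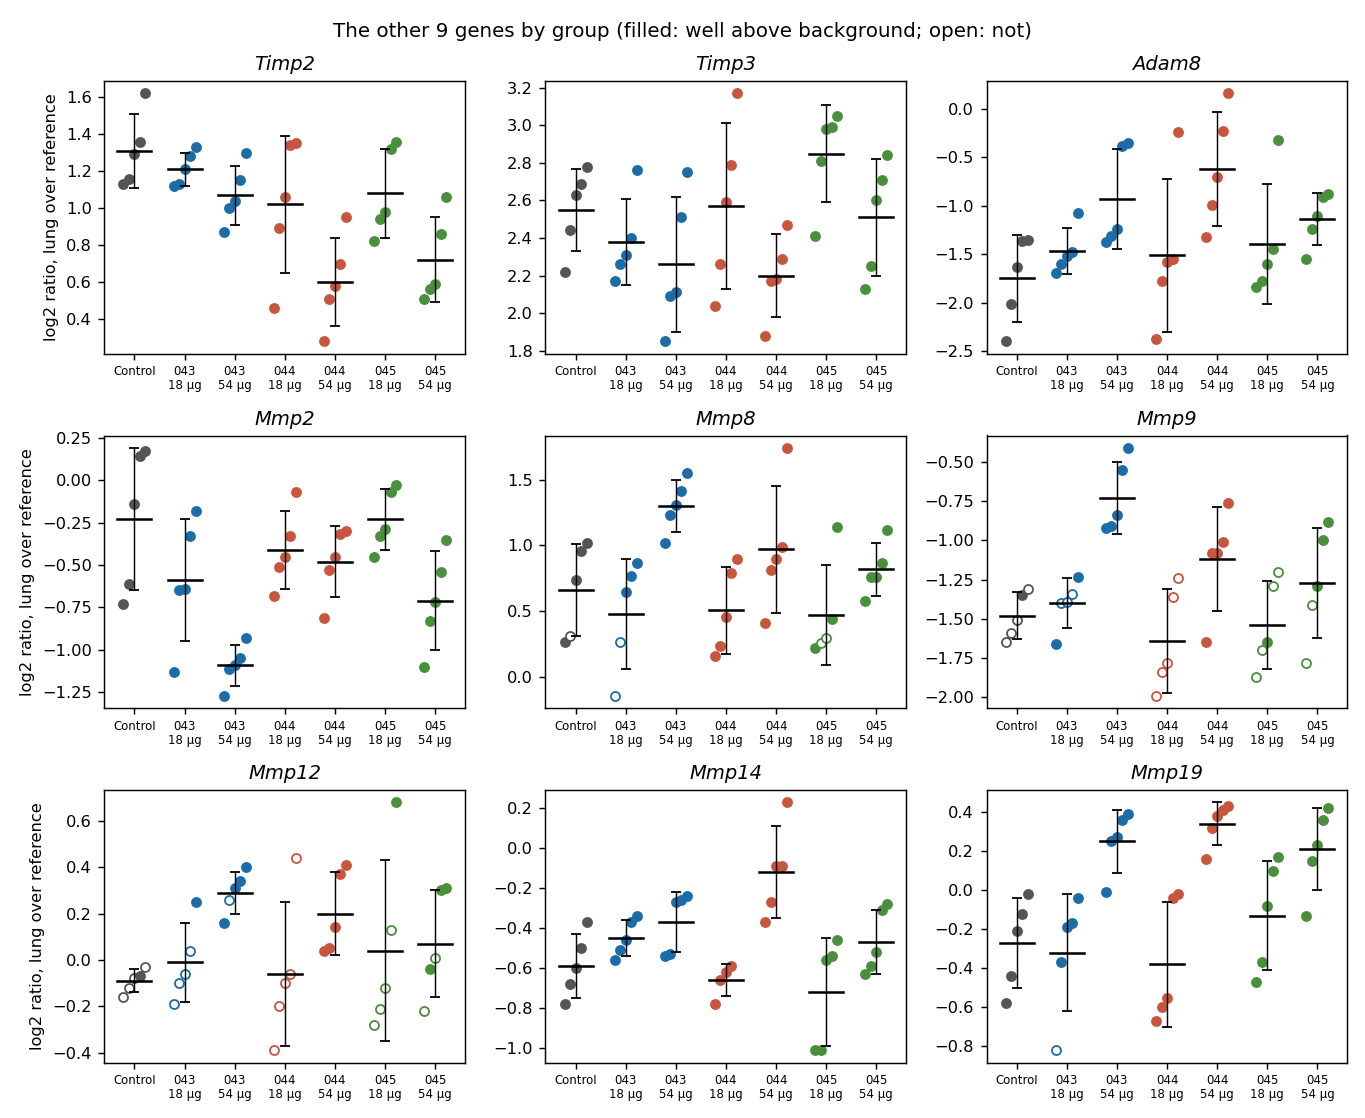
Log2 ratio to the reference on each array for the other 9 genes, by group, with the brighter probe of Timp2; lines are means, bars ±1 SD (n = 5, and 4 for Mmp14 at 18 µg of NRCWE-044), and open points were not well above background. Mmp2 lies lowest at 54 µg of NRCWE-043 (-1.09), Mmp9 highest there (-0.73), and Adam8 and Mmp14 highest at 54 µg of NRCWE-044 (-0.62 and -0.12).

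Median centring of the arrays in place of loess ended most calls. At 54 µg it left Timp1 and Mmp9 called with NRCWE-043, Timp1 with NRCWE-044 and 0 genes with NRCWE-045, and called 524, 43 and 0 of all features. Most of the lost calls changed little in size: Timp1 with NRCWE-045 was 2.54, Mmp8 and Mmp19 with NRCWE-043 were 0.62 and 0.60, and Adam8, Mmp14, Mmp19 and Timp2 with NRCWE-044 were 1.04, 0.41, 0.57 and -0.66 (adjusted p = 0.11 to 1). Mmp2 with NRCWE-043 was -0.55 in place of -0.86 (adjusted p = 0.44). The median of all features then moved by 0.12 with NRCWE-043, and the share of called features that were higher went from 52.2 to 67.0%. With NRCWE-044 that share went from 65.9 to 95.3%, and with the deposited log2 ratios it was 53.6%. Without control replicates 7 and 29, the calls of Mmp8 and Mmp19 with NRCWE-043 (0.63 and 0.49, adjusted p = 0.090 and 0.063) and of Adam8, Mmp14 and Mmp19 with NRCWE-044 (1.05, 0.43 and 0.58, adjusted p = 0.11, 0.074 and 0.061) were lost, while 3198 and 880 of all features were called. Mmp2 was then called at 18 µg of NRCWE-043 (-0.64, adjusted p = 0.015) and at 54 µg of NRCWE-045 (-0.76, adjusted p = 0.034). Control replicates 7 and 29 held the lowest Mmp2 values of the controls, so leaving them out raised the control mean. These Mmp2 calls therefore depend on which controls were left out. Without replicates 2, 4, 18, 29 and 34, 5 arrays of the control and NRCWE-044 54 µg groups with a raised heart muscle or adipose score, Timp1 alone of the 10 stayed called with NRCWE-044, and Adam8, Mmp14, Mmp19 and Timp2 were 0.86, 0.49, 0.75 and -0.69 (adjusted p = 0.59, 0.22, 0.19 and 0.23), while 67 of all features were called. Only replicates 24 and 31 then remained at 54 µg of NRCWE-044, and replicates 7, 15 and 30 in the control. These fits thus had fewer arrays to call a change with.

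The materials were compared directly at matched dose, for 10 genes in 6 comparisons, with p adjusted over all features of each. At 54 µg NRCWE-044 and NRCWE-043 differed in Mmp2 and in the brighter Timp2 probe, 2 of 10, beside 7.60% of all features. Mmp2 was 0.61 higher with NRCWE-044 (SE 0.17, adjusted p = 0.018), with no overlap of the arrays, and 0.63 to 0.79 higher within 3 slides. With median centring it was 0.26 (adjusted p = 0.67), and without replicates 2, 4, 18, 29 and 34 it was 0.42 (adjusted p = 0.39). That last fit kept only replicates 24 and 31 of NRCWE-044. It kept all arrays of NRCWE-043, with replicate 9 at 3.59 for adipose markers and replicate 16 at 1.5 for heart muscle markers. The call was lost without NRCWE-044 replicate 4 or 18 or NRCWE-043 replicate 22 (0.56 to 0.57, adjusted p = 0.051 to 0.054). Timp2 was lower with NRCWE-044 by -0.47 (SE 0.14, adjusted p = 0.038), by -0.15 when both probes were averaged (adjusted p = 0.40) and by -0.92 with median centring (adjusted p = 0.19). That call was lost without NRCWE-043 replicates 3, 9, 16 or 22 or NRCWE-044 replicates 18, 24 or 34 (-0.49 to -0.39, adjusted p = 0.055 to 0.13). In the limma fit of single probes the dimmer Timp2 probe went the other way for this pair, at 0.17 (adjusted p = 0.42).

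By limma NRCWE-045 and NRCWE-043 at 54 µg were called different in Mmp9, 1 of 10, beside 5.39% of all features. Mmp9 was lower with NRCWE-045 by -0.55 (SE 0.17, adjusted p = 0.047), a call lost without NRCWE-043 replicate 9, 16 or 19 or NRCWE-045 replicate 8, 28 or 35 (-0.57 to -0.42, adjusted p = 0.062 to 0.19). Mmp9 was well above background on all 5 arrays of NRCWE-043 and 3 of NRCWE-045, and passed the filter only through groups at 54 µg. Among other settings, the call was also lost without background subtraction, with no filter, with slide as a fixed block and with only the arrays compared. In these the difference was -0.55 to -0.49 (adjusted p = 0.050 to 0.067). The call was kept in 8 of 21 alternatives. NRCWE-045 and NRCWE-044 at 54 µg differed in 0 of 10 by limma, beside 0% of all features; at an unadjusted p under 0.05 these were 1 (Mmp14) and 1540 of all features. At 18 µg the materials differed in 0 of 10 genes in each pair, with the brighter probe standing for Timp2. At an unadjusted p under 0.05 these counts were 1 for NRCWE-044 against NRCWE-043, 3 for NRCWE-045 against NRCWE-043 and 0 for NRCWE-045 against NRCWE-044, and 6316, 5781 and 3381 of all features, of which 11.0, 8.52 and 0.450% were called after adjustment. In the limma fit of single probes, the dimmer Timp2 probe was 0.35 higher with NRCWE-045 than with NRCWE-043 at 18 µg (SE 0.1, adjusted p = 0.027). The brighter Timp2 probe was at -0.13 there (adjusted p = 0.65).

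For Timp1 at 54 µg the material differences were 0.06 (95% interval -1.10 to 1.21) for NRCWE-044 against NRCWE-043, -1.06 (-2.21 to 0.09) for NRCWE-045 against NRCWE-043, and -1.12 (-2.27 to 0.03) for NRCWE-045 against NRCWE-044. None passed, and the intervals allow differences of over 1 log2 unit. At 18 µg Timp1 was -1.20 with NRCWE-044 against NRCWE-043 (-2.35 to -0.05, adjusted p = 0.18), and this was called without NRCWE-044 replicate 23, the array at 0.32 (-1.74, adjusted p = 0.034). Replicate 23 had the highest median lung channel signal of all arrays and averaged 2.33 for heart muscle markers. Whether either has a part in its Timp1 value was not tested. The steps from 18 to 54 µg were also compared between materials. By limma 0 of 10 genes differed in any of the 3 such tests, beside 0% of all features in each. At an unadjusted p under 0.05 these were 1 (Mmp14) and 836 of all features for NRCWE-044 against NRCWE-043, 0 and 915 for NRCWE-045 against NRCWE-043, and 0 and 1142 for NRCWE-045 against NRCWE-044. The Timp1 step of NRCWE-044 exceeded that of NRCWE-043 by 1.26 (-0.37 to 2.89).

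The other genes of the system were described by list. Beside the list counts that follow, 10.2, 5.95 and 0.325% of all features were called at 54 µg with NRCWE-043, NRCWE-044 and NRCWE-045. At 18 µg of NRCWE-043 this share was 4.18%. Of 17 other metalloproteinases 6 passed the filter on dim probes, and of these Mmp3, the stromelysin that cuts many matrix proteins and activates other precursors, rose at 54 µg by 1.08 with NRCWE-043 (SE 0.21, adjusted p = 8.9e-04) and 1.31 with NRCWE-044 (SE 0.21, adjusted p = 2.1e-04). It was 0.72 with NRCWE-045 (adjusted p = 0.13). The median of the 6 was -0.12, -0.12 and -0.09. Of 10 tested inhibitors and partners, 2 rose with NRCWE-043: Lcn2, which binds Mmp9 and protects it, by 1.41, and the tetraspanin Cd63, a surface partner of Timp1, by 0.64. With NRCWE-044, 2 rose, Lcn2 by 1.72 and the proteoglycan Sdc4 by 0.55, and with NRCWE-045 Lcn2 was 1.39 (adjusted p = 0.066) and was not called. At 18 µg of NRCWE-043, Sdc1 rose by 0.56 (adjusted p = 0.0074).

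Of 15 other ADAM and ADAMTS proteases, 1 passed at 54 µg: the aggrecanase Adamts5 fell by 0.40 with NRCWE-043 (adjusted p = 0.021). Of 9 tested genes of the plasminogen system, Thbs1, a matrix protein that binds latent TGF-beta and proteases, rose with all 3 materials at 54 µg, by 1.03, 0.90 and 1.23 (adjusted p = 0.0034, 0.015 and 0.020), and by 0.86 at 18 µg of NRCWE-043 (adjusted p = 0.028). Of 14 matrix genes, the proteoglycan Vcan rose by 0.83 with NRCWE-043 and 0.92 with NRCWE-044, fibronectin (Fn1) by 0.78 with NRCWE-044, and Fbln5, an elastic fibre protein, fell by 0.72 and 0.74. With NRCWE-045 Vcan, Fn1 and Fbln5 were 0.60, 0.45 and -0.35 and were not called. Of 13 tested cytokines and regulators known to act on Timp1 or metalloproteinase genes, 4 rose with NRCWE-043 and the same 4 with NRCWE-044: Il1b (1.74 and 1.39), Il6 (1.18 and 0.98), Socs3 (0.77 and 0.71) and Tnf (0.55 and 0.49). With NRCWE-045, 1 rose, Il1b by 1.30 (adjusted p = 0.038).

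Markers of several cell types were also called in the groups where proteases were. The marker counts here and below stand beside 10.2, 5.95 and 0.325% of all features with NRCWE-043, NRCWE-044 and NRCWE-045 at 54 µg. A count near these shares says nothing particular about a list. Of 18 tested neutrophil markers, which include Mmp8 and Mmp9 themselves, 6 rose and 2 fell at 54 µg of NRCWE-043, 3 rose with NRCWE-044 and 0 were called with NRCWE-045. Clec4d rose by 1.47 and 0.94, Il1r2 by 1.57 and 1.17 and Retnlg by 1.32 and 1.17, while the granulocyte receptor Cxcr2 rose by 1.45 with NRCWE-043 and was 0.61 with NRCWE-044 (adjusted p = 0.10). These 4 had the largest changes at 54 µg among the called markers, and the 2 that fell are not among them. The mean over the 16 tested markers other than Mmp8 and Mmp9 ran from 0.92 to 2.16 in controls, 1.63 to 1.94 at 54 µg of NRCWE-043, 1.51 to 2.43 of NRCWE-044 and 1.23 to 2.22 of NRCWE-045, so each range overlapped the controls. For monocytes and macrophages of the interstitium, 15 markers were tested: 7 were up and 2 down with NRCWE-043, 6 rose with NRCWE-044 and 0 were called with NRCWE-045; their mean ran from 1.62 to 1.97 in controls, 1.94 to 2.50, 2.15 to 2.84 and 1.90 to 2.26. With NRCWE-044 every array lay above the controls in that mean.

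Of 12 fibroblast markers, 4 fell and 0 rose with NRCWE-043, the group in which Mmp2 fell; 2 fell and 1 rose with NRCWE-044, and 0 were called with NRCWE-045. Their mean ran from 1.29 to 1.65 in controls, 1.01 to 1.30 with NRCWE-043, 0.99 to 1.45 with NRCWE-044 and 0.85 to 1.34 with NRCWE-045. The part of these cell types in the protease values was not tested. Of 12 alveolar macrophage markers, 3 fell with NRCWE-043, 3 rose and 1 fell with NRCWE-044, and 0 were called with NRCWE-045. Of 7 tested club and ciliated cell markers 3 fell with NRCWE-043, and of 11 tested alveolar epithelium markers 2 rose with NRCWE-043 and 1 with NRCWE-044. The endothelial, heart muscle and adipose lists had 0 of 10, 0 of 14 and 0 of 10 tested genes called at 54 µg with any material.

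Across the 35 arrays the genes most like each called gene were found by Pearson's r of their log2 ratios, as a description: the arrays share a reference and slides, and differences between the groups enter every r. For Timp1 these were Saa3, a serum amyloid of the acute phase (r = 0.97, Spearman's rho = 0.95), the monocyte attractant Ccl2 (r = 0.97, rho = 0.97) and Ccdc167 (r = 0.96, rho = 0.94). Among the 10 genes, Timp1 was most like Adam8 (r = 0.75) and Mmp14 (r = 0.70), and ran opposite to Mmp2 (r = -0.63) and Timp3 (r = -0.51). Mmp9 was nearest to Slfn4 (r = 0.85), Ncf1, a subunit of the phagocyte oxidase (r = 0.83), and Relt (r = 0.82). Mmp8 was nearest to the protease-activating Ctsc, Ankrd52 and the neutrophil protein S100a8 (r = 0.77 each).

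Adam8 was nearest to Steap1 (r = 0.88), Dok2 (r = 0.85) and the eosinophil attractant Ccl24 (r = 0.85). Mmp14 was nearest to Isyna1 (r = 0.85), the chaperone Calr (r = 0.85) and Ergic1 (r = 0.81), and Mmp19 to Tmem176a (r = 0.83), Itih4 (r = 0.81) and Lgals9 (r = 0.81). Mmp2 was nearest to Ltbp3, which binds latent TGF-beta (r = 0.82), P3h3, a collagen-modifying enzyme (r = 0.74), and Tsc22d1 (r = 0.70). The brighter Timp2 probe was nearest to the transcription factor Klf9 (r = 0.82), Zscan26 (r = 0.76) and Lpin2 (r = 0.76).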

How the data were processed

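Lung RNA was measured on 35 two-colour Agilent arrays in 7 groups of 5. The authors deposited scanner intensities, extracted with Agilent Feature Extraction 11.0.1.1 per the file headers, and log2 ratios with a normalization not given in the sources used here. These deposited log2 ratios correlated at 0.994 to 1.00 with loess ratios made without background subtraction. Here, median intensities were corrected with normexp (offset 50) and normalized by loess in limma 3.58.1 (R 4.3.3). Marked spots were left out. A probe was tested if its Cy5 signal was well above background on 3 or more of the 5 arrays of any group (34326 probes), and the brightest stood for a gene, which gave 25534 features. lmFit and eBayes over all 35 arrays, without a slide term, gave changes, with Benjamini-Hochberg adjustment within each of 18 comparisons. Adjusted p under 0.05 made a call. Intervals are 95%. A "fold at least" compares mean Cy5 signals after counting dim spots at the lowest signal above background. The number of arrays limits the precision. Genes outside the 10 were named if called against control, up to 4 per list with the largest change at 54 µg; the 3 genes nearest in r were named for each called gene. The 10 genes and the lists were chosen with earlier results of these data known. Alternatives changed the background, normalization, filter, probe summary, marked spots, slide handling and arrays used. The procedure was tested on simulated data for 54 µg of NRCWE-043 against control, with noise independent between arrays and no slide effect. It recovered 50% of changes of 0.5 and 94% of changes of 1, with 8 false calls among 24883 features. Promoter windows come from RefSeq (GRCm38.p6).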

Additional observations from a re-analysis of the deposited data

Results flagged for a closer look

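Of 70 groups of 5 values (4 values for Mmp14 at 18 µg of NRCWE-044), 4 held an array far from the others. Chance alone marks about 1 in 20. Timp1 stood at -0.22 in control replicate 29, where the next control was -2.49, and at 1.36 in replicate 10 at 18 µg of NRCWE-043, where the next was -0.79. Mmp8 stood at 1.14 in replicate 25 and Adam8 at -0.32 in replicate 13, both at 18 µg of NRCWE-045, where the next values were 0.44 and -1.45.

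In 3 tests of a difference between materials at 54 µg the direct comparison passed. Mmp2 was 0.61 higher with NRCWE-044 than with NRCWE-043, the brighter Timp2 probe was at -0.47 for the same pair, and Mmp9 was at -0.55 for NRCWE-045 against NRCWE-043. In this order, the calls were kept in 16, 11 and 8 of 21 alternatives. The dimmer Timp2 probe was at 0.17 for NRCWE-044 against NRCWE-043 and was not called.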

How the results depend on the processing

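Of 4080 values of single genes under alternatives, 3948 kept their side of the threshold, 110 lost a call, 22 gained one and 0 called values changed sign; 147 uncalled values did. Timp1 at 54 µg of NRCWE-043 (3.42 to 4.19) and NRCWE-044 (3.42 to 4.18), its NRCWE-044 dose step (3.05 to 3.87) and Mmp9 at 54 µg of NRCWE-043 (0.66 to 0.82) stayed called in all 21 alternatives each; the other 16 called results lost the call in at least 1. Counts of the 10 genes called moved as follows. With median centring they were 2 for NRCWE-043, 1 for NRCWE-044 and 0 for NRCWE-045 at 54 µg against control, 0 and 1 for the dose steps of NRCWE-043 and NRCWE-044, and 0 for NRCWE-044 and NRCWE-045 against NRCWE-043 at 54 µg. In the same order, 524, 43, 0, 6, 83, 851 and 529 of all features were called. The NRCWE-043 dose step had 1 with the deposited ratios, 1 with no filter and 0 with only the arrays compared. Of all features, 351, 228 and 28 were called there. NRCWE-045 against NRCWE-043 at 54 µg had 0 without background subtraction, with no filter and with slide as a fixed block. Beside these, 1411, 1301 and 1100 of all features were called. NRCWE-044 against NRCWE-043 at 54 µg had 1 with probes averaged, beside 1931 of all features. NRCWE-045 at 54 µg had 2 with slide as a random block and 0 with only the arrays compared. The counts over all features were 273 and 32. Without control replicates 7 and 29, NRCWE-043 had 2 at 18 µg and 3 at 54 µg, NRCWE-044 2, NRCWE-045 2, and NRCWE-045 against NRCWE-043 at 54 µg 0. In the same order, 1924, 3198, 880, 100 and 1465 of all features were called. Without replicates 2, 4, 18, 29 and 34, NRCWE-044 had 1 at 54 µg and 1 for its dose step, beside 67 and 102 of all features. Its group at 54 µg was then left with replicates 24 and 31 only. The differences of NRCWE-044 and NRCWE-045 from NRCWE-043 at 54 µg then had 0, beside 602 and 1279 of all features. Leaving out 1 array at a time, the counts ran from 3 to 5 for NRCWE-043 and NRCWE-044 at 54 µg, 0 to 1 for NRCWE-045 at 54 µg and NRCWE-043 at 18 µg, 0 to 3 and 3 to 6 for the dose steps of NRCWE-043 and NRCWE-044, 0 to 1 and 0 to 2 for NRCWE-044 against NRCWE-043 at 18 and 54 µg, and 0 to 1 for NRCWE-045 against NRCWE-043 at 54 µg. In these same fits the calls over all features ran from 1441 to 3093 and 752 to 1790 for NRCWE-043 and NRCWE-044 at 54 µg, 0 to 221 for NRCWE-045 at 54 µg, 388 to 1850 for NRCWE-043 at 18 µg, 7 to 566 and 923 to 2055 for the dose steps, 2040 to 2906 and 1454 to 1860 for NRCWE-044 against NRCWE-043 at 18 and 54 µg, and 908 to 1365 for NRCWE-045 against NRCWE-043 at 54 µg. The causes were not tested. Over all features, calls at 54 µg ran from 524 to 3246 (NRCWE-043), 43 to 2305 (NRCWE-044) and 0 to 273 (NRCWE-045), the lowest with median centring and the highest with slide as a random block. At 18 µg of NRCWE-043 they ran from 0 with only the arrays compared to 1924 without control replicates 7 and 29. With median centring the median of all features moved by over 0.1 also in the dose steps of NRCWE-043 (0.14) and NRCWE-045 (0.12) and in NRCWE-044 against NRCWE-043 at 54 µg (-0.18). No paired analysis was possible because each replicate number belongs to 1 sample. Slides, which hold several groups, were used as a fixed or a random block only in alternatives. The main fit had no slide term, and the consensus correlation within slides was 0.19. Mmp9 and Mmp12 lay near background, which limits how large a change their probes can show.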
